A study of Mus musculus with 12 samples.

Results

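Toll-like receptors of the cell surface and the proteins that work with them were followed through 5 sorted mouse populations of dendritic cells (DCs) and DC progenitors. The set comprised 10 genes of the 22180 genes measured: the receptor genes Tlr1, Tlr2, Tlr4, Tlr5 and Tlr6, the co-receptor genes Cd14 and Ly96, the receptor-like gene Cd180 with its partner Ly86, and the adaptor gene Myd88. The members were chosen by name, as the surface-expressed receptors with their co-receptors and shared adaptor, and each was represented on the arrays by a single probe set. RNA was measured on 12 Affymetrix whole-transcript arrays, after NuGEN Ovation Pico amplification and biotin labelling.

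All mice were C57Bl/6, carried Zbtb46GFP/+, a GFP reporter at 1 allele of a transcription factor gene of classical DCs, and were studied at steady state; ages were not used here. Cells of 8 to 10 littermates were sorted to a purity above 95%. Marrow, released with mortar and pestle, gave the common DC progenitor (CDP, n = 3 arrays), lineage-negative and intermediate for CD117, positive for CD135 and CD115, and without CD11c or MHC class II. Marrow also gave the pre-CD8 progenitor (n = 2), intermediate for CD117 and MHC class II, positive for CD135 and CD11c and without Siglec H. The pre-CD4 progenitor (n = 2), again from marrow, was low for CD117, positive for CD135, CD115 and CD11c and without MHC class II. Spleen, digested with collagenase B and DNase, gave CD24 DCs (n = 3), positive for CD11c and CD24, without CD172a and, by the label, without MHC class II. Spleen also gave CD172a DCs (n = 2), which carried CD172a, CD11c and MHC class II. Both spleen populations correspond to the lineages usually called cDC1 (CD24) and cDC2 (CD172a). It is not stated whether replicate arrays represent different animals, so p-values measure the spread between these arrays, which may be technical.

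Surface Toll-like receptors recognise molecules of the microbial envelope and, through Toll/interleukin-1 receptor domains inside the cell, recruit adaptors that lead to NF-kB activation and cytokine production. TLR2 pairs with TLR1 or TLR6 to bind lipopeptides, TLR5 binds flagellin, and TLR4 binds lipopolysaccharide (LPS) in a complex with MD-2 (the product of Ly96), to which CD14 hands over the ligand. CD180 (RP105) resembles TLR4 outside the cell and pairs with MD-1 (the product of Ly86), but lacks the signalling domain, and MyD88 is the adaptor that all of these TLRs use. In DCs, recognition by these receptors is known to trigger maturation.

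The stretches upstream of 4 members are shown because the set holds genes with the widest and the narrowest changes among the populations. Tlr1 and Tlr6 lie next to each other, with 0 protein-coding genes between them in RefSeq, and are shown together as neighbours with different patterns. Tlr2, which encodes their shared partner, and Cd180, the member that differed most between CDP and all later populations, follow. Each line holds the 250 bases before a transcription start in the RefSeq promoter table (GRCm38.p6), read 5′ to 3′ on the gene's strand. Where RefSeq lists other starts for the gene, part of a window can lie within another transcript. Capitals mark matches, on either strand, to AGGAAG (the core of ETS sites, as PU.1 binds), TTGCNNAA (C/EBP), GAAANNGAA (IRF) and TGANTCA (AP-1).
Tlr1, chr5:64933559-64933808, minus strand: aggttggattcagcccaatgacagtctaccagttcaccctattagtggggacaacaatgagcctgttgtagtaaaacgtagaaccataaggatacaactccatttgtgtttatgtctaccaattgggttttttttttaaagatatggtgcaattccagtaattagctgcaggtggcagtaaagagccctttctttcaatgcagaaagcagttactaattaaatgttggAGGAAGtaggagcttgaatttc
Tlr6, chr5:64959167-64959416, minus strand: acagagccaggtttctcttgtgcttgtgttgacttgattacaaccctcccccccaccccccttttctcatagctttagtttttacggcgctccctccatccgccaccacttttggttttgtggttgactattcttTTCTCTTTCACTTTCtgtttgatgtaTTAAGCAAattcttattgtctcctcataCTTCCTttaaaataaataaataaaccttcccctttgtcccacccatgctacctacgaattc
Tlr2, chr3:83841609-83841858, minus strand: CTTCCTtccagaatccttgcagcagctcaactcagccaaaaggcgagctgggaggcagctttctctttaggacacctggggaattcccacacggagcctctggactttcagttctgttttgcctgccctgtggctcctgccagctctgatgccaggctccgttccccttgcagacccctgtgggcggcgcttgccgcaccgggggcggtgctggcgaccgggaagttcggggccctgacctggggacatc
Cd180, chr13:102693297-102693546, plus strand: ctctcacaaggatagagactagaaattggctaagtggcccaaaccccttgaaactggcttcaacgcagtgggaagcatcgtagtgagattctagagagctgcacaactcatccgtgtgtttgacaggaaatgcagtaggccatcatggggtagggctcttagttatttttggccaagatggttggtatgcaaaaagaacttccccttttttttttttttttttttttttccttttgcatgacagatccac

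The Tlr1 window held a single match, to AGGAAG, beginning 22 bases before the start. The Tlr6 window held AGGAAG 61 bases, TTGCNNAA 89 bases and GAAANNGAA 115 and 109 bases before the start, the last 2 overlapping each other. The Tlr2 window had AGGAAG at its far end, 250 bases before the start, and the Cd180 window held none of the 4 motifs. Of all 32851 promoter windows of this length, 29.5% held AGGAAG, 9.56% TTGCNNAA, 7.13% GAAANNGAA and 6.75% TGANTCA, so that matches of this kind are common. Windows of 7 of the 10 members were searched. Tlr1, Tlr6 and Cd180 each had a further window, not shown, which held none of the 4 motifs. The Tlr5 window held no match, the Ly86 window had AGGAAG 212 bases before the start and the Myd88 window had GAAANNGAA 40 bases before it.

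Both spleen populations were set apart by genes of their lineages, and transcripts of the sorted proteins went with the labels in part. The mean log2 level of 6 cDC1 genes was 9.60 to 10.04 on the CD24 DC arrays, against 6.85 to 7.26 on the CD172a DC arrays. The mean of 6 cDC2 genes was 4.928 to 4.998 on the CD24 DC arrays, against 7.470 to 7.992 on the CD172a DC arrays. The mean of 4 progenitor genes was highest on the CDP arrays (9.17 to 9.39, against 7.58 to 8.21 elsewhere), with Cd34 and Csf1r highest in CDP but Kit and Flt3 not. Kit, which encodes CD117, averaged 8.24 in CDP, 9.04 in pre-CD8, 5.95 in pre-CD4, 9.71 in CD24 DC and 9.70 in CD172a DC. H2-Ab1, which encodes an MHC class II chain, went against the label of CD24 DCs as class II negative, at 12.06 to 12.35 in CD24 DC and 11.79 to 12.06 in CD172a DC, with 6.41 to 6.70 in CDP. Pre-CD4, also labelled as class II negative, stood above CDP, at 8.17 and 10.20 on its arrays, which lay far apart. Pre-CD8, labelled as intermediate, stood at 11.57 to 11.98. Array medians were 4.89 to 5.24 (log2), and arrays of a group correlated at r = 0.925 to 0.987 over all probe sets. Levels below are the deposited log2 values, in which a difference of 1 is a 2-fold change, and the level of a gene's probe set is not comparable with that of another gene. Since the level of an unexpressed probe set is unknown here, low values cannot be read as detection.

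**Figure D1:**
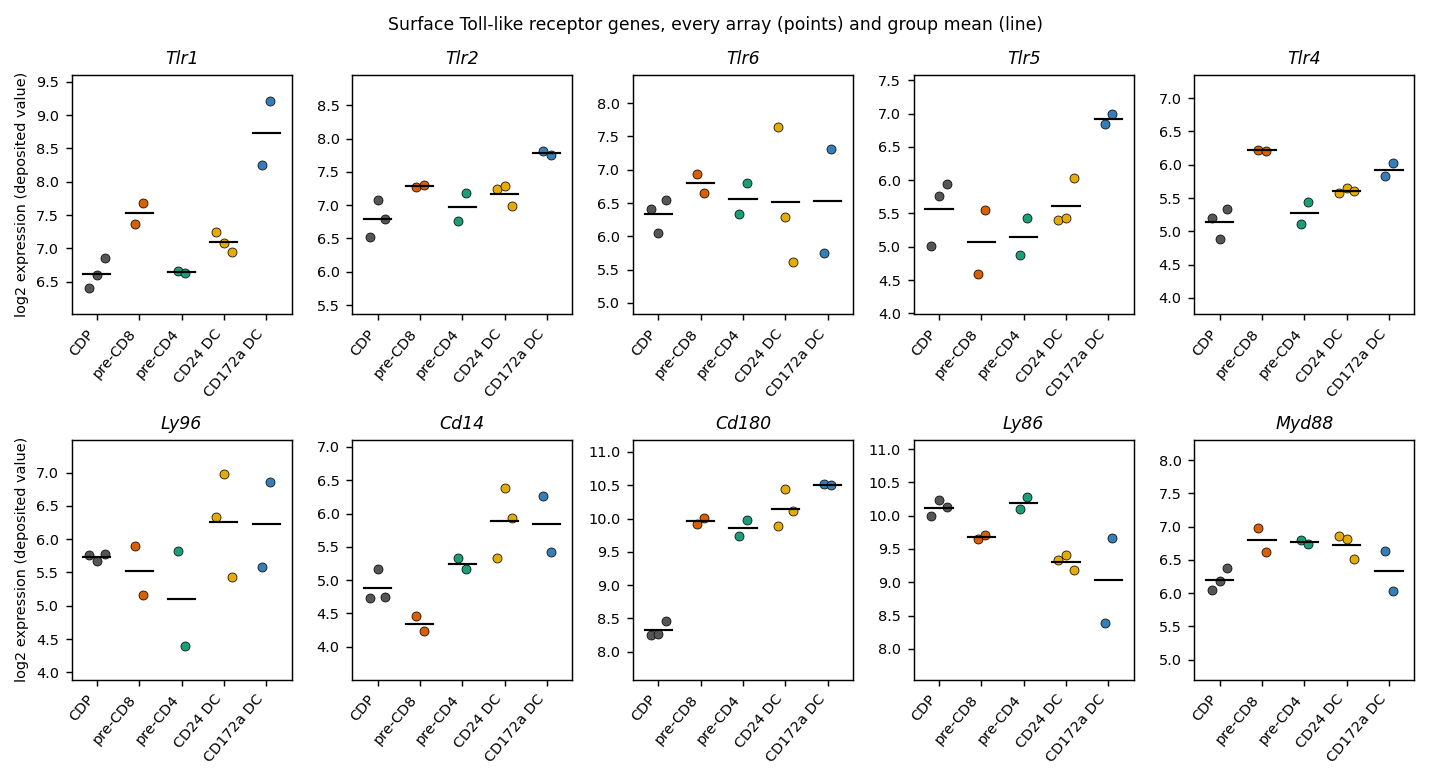
Log2 expression (vertical axis, deposited value) of the 10 genes in each population (horizontal axis). Points are single arrays and lines group means, and every panel covers the same span of log2 units. CD172a DC arrays are above all others for Tlr1, Tlr2, Tlr5 and Cd180, CDP arrays are below all others for Cd180, and Tlr6 and Ly96 scatter within the spleen groups. The share of all genes with arrays set apart in this way was not counted.

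Across the 10 pairs of populations and 10 genes, 23 of 100 differences were called, that is, had an adjusted p under 0.05 in limma (Benjamini-Hochberg over all genes). Over all genes, the share called in a pair ran from 0.703% (pre-CD8 against pre-CD4) to 22.8% (CD172a DC against CDP). CD172a DC against CDP gave the most, with 6 genes higher and 1 lower in CD172a DC, where 22.8% of all genes were called in either direction (8.68% higher and 14.2% lower). Between these populations the median difference of the 10 genes was 0.87, against 0.13 over all genes. CD24 DC against CDP gave 2 higher and 1 lower, with 21.2% of all genes called and a median of 0.47 in the set, against 0.12 over all genes. Tlr1, Tlr5, Cd14 and Cd180 had 4 called pairs each, Ly86 had 3, Tlr2 and Tlr4 had 2 each, and Tlr6, Ly96 and Myd88 had 0. For those last genes the adjusted p of every pair was above the threshold, and their intervals, given below, leave room for sizeable differences. Called pairs per gene were not counted over all genes. Marrow and spleen populations also differed in organ and in how the cells were released. In every comparison between them, the test of stage below included, organ, handling and stage cannot be told apart.

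The TLR2 family was led by Tlr1. Tlr1 stood at 6.41, 6.59 and 6.85 on the CDP arrays, 7.36 and 7.68 on the pre-CD8 arrays, 6.66 and 6.63 on the pre-CD4 arrays, 7.24, 7.08 and 6.95 on the CD24 DC arrays and 8.25 and 9.21 on the CD172a DC arrays. Both CD172a DC arrays were above every other array, although they differed from each other by more than any other group did, and both pre-CD8 arrays were above the 8 remaining ones. Tlr1 was 2.11 ± 0.26 (standard error) higher in CD172a DC than in CDP, a 4.32-fold difference (limma, adjusted p = 8.41e-05). It was 2.08 ± 0.29 higher in CD172a DC than in pre-CD4, the progenitor of that lineage (4.24-fold, adjusted p = 0.000341), and 1.21 ± 0.29 higher in CD172a DC than in pre-CD8 (adjusted p = 0.0172). The last call was lost without CD172a DC array 2 (difference 0.73, adjusted p = 0.155) or pre-CD8 array 1 (1.04, 0.157) and with only the groups compared in the fit (0.0658). In a bulk sample of sorted cells, more RNA per cell and more cells that express a gene cannot be told apart.

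In spleen, Tlr1 was lower in CD24 DC than in CD172a DC by 1.64 (limma, difference -1.64 ± 0.26, adjusted p = 0.00196), with group means of 7.09 ± 0.15 in CD24 DC and 8.73 ± 0.68 in CD172a DC (SD, n = 3 and 2). In marrow, the difference pre-CD8 minus pre-CD4 was 0.88 ± 0.29, with means of 7.52 ± 0.23 in pre-CD8 and 6.65 ± 0.02 in pre-CD4 (SD, n = 2 each), and it was not called (adjusted p = 0.41). The pre-CD8 arrays nevertheless stood above both pre-CD4 arrays. The spleen difference between the lineages minus the marrow difference was -2.52 ± 0.39 (limma, adjusted p = 0.00666). Tlr1 was the only 1 of the 10 genes called in this test of stage, in which 1.03% of all genes were called, and it stayed called under all 6 other settings and on leaving out each of the 12 arrays, at -3.00 to -2.04. The mean of probe sets, 1 of these settings, leaves the values of a gene with 1 probe set unchanged. Against CDP, pre-CD8 was 0.90 ± 0.26 higher without a call (adjusted p = 0.0729), a difference that was called after quantile normalization (0.0401), with the dim genes left out (0.0444) and with only both groups in the fit (0.0497).

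Tlr2 moved in a narrower range. It stood at 6.51, 7.08 and 6.80 on the CDP arrays, 7.28 and 7.30 on the pre-CD8 arrays, 6.76 and 7.19 on the pre-CD4 arrays, 7.24, 7.29 and 6.99 on the CD24 DC arrays and 7.81 and 7.75 on the CD172a DC arrays. As for Tlr1, both CD172a DC arrays were the highest of the 12, and each of the other populations overlapped at least 1 more. Tlr2 was 0.98 ± 0.22 higher in CD172a DC than in CDP (1.98-fold, limma, adjusted p = 0.00498). It was 0.81 ± 0.24 higher in CD172a DC than in pre-CD4 (adjusted p = 0.04), and that call held on leaving out 5 of the 12 arrays in turn. It was lost without either CD172a DC array, either pre-CD8 array, pre-CD4 array 1, CD24 DC array 2 or CDP array 3, with the lowest difference (0.59, adjusted p = 0.337) without pre-CD4 array 1, and with only both groups in the fit (0.0563). CD24 DC minus CD172a DC was -0.61 ± 0.22 without a call (adjusted p = 0.147, 95% interval -1.08 to -0.14).

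Tlr6 showed no called difference. Its values ran from 6.05 to 6.55 on the CDP arrays, 6.66 to 6.94 on the pre-CD8 arrays, 6.33 to 6.80 on the pre-CD4 arrays, 5.61 to 7.65 on the CD24 DC arrays and 5.74 to 7.31 on the CD172a DC arrays. Arrays of each spleen population thus covered a range wider than all marrow arrays together. CD24 DC minus CD172a DC was -0.01 ± 0.51 (limma, adjusted p = 0.999), with a 95% interval of -1.10 to 1.09, so that changes of about 2-fold in either direction were not detectable between the spleen populations.

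Tlr5, the flagellin receptor gene, was high in CD172a DC. It stood at 5.02, 5.76 and 5.94 on the CDP arrays, 4.58 and 5.56 on the pre-CD8 arrays, 4.87 and 5.43 on the pre-CD4 arrays, 5.40, 5.42 and 6.03 on the CD24 DC arrays and 6.85 and 6.99 on the CD172a DC arrays. The CD172a DC arrays lay above all 10 others, and those 10 overlapped across their 4 populations. Tlr5 was 1.84 ± 0.37 higher in CD172a DC than in pre-CD8 (3.59-fold, limma, adjusted p = 0.00617), 1.77 ± 0.37 higher than in pre-CD4 (3.40-fold, adjusted p = 0.00641) and 1.35 ± 0.34 higher than in CDP (2.54-fold, adjusted p = 0.0109). CD24 DC minus CD172a DC was -1.30 ± 0.34 (adjusted p = 0.0394). Each of these 4 calls was lost on leaving out at least 1 array. The call against pre-CD8 was lost without pre-CD8 array 1 (1.36, 0.0961), that against pre-CD4 without pre-CD4 array 1 (1.49, 0.0865), and that against CDP without either CD172a DC array (1.42, 0.0614 and 1.28, 0.0755). The spleen call was lost without either CD172a DC array, CD24 DC array 1 or 2, or CDP array 2, at -1.37 to -1.19 and adjusted p of 0.055 to 0.2.

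**Figure D2:**
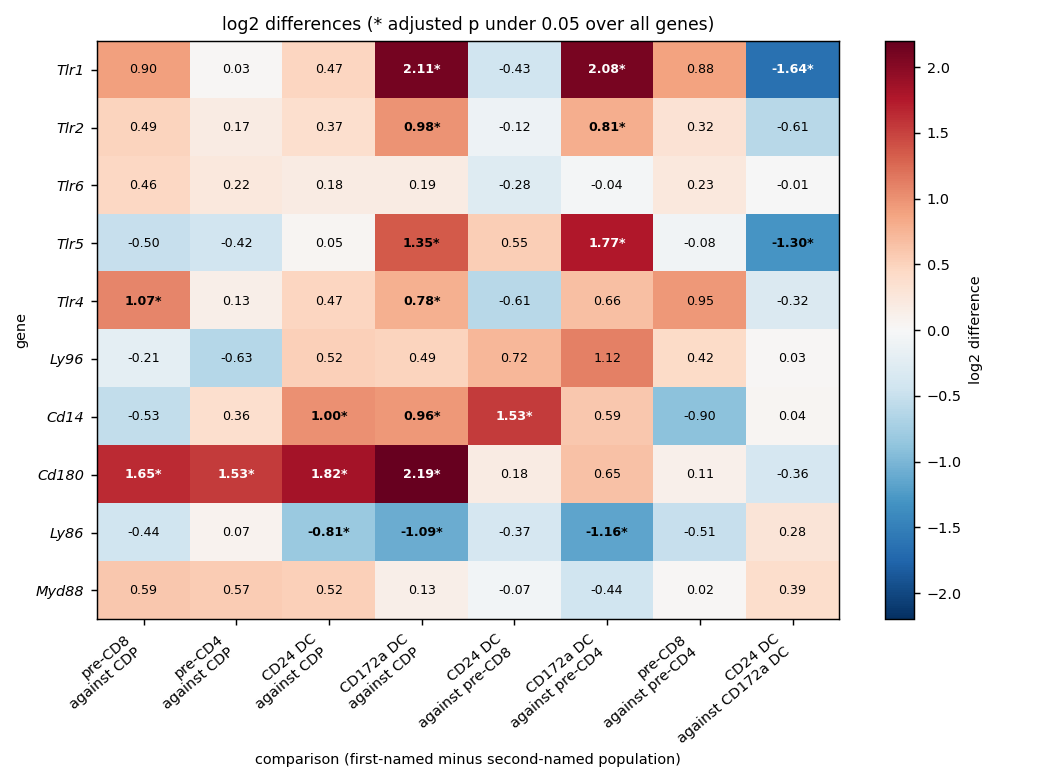
Log2 differences (colour and number) of the 10 genes (rows) in 8 comparisons of populations (columns), each the first-named minus the second-named population, with an asterisk for an adjusted p under 0.05 in limma over all genes. CD172a DC against CDP holds 7 asterisks, and the Cd180 row holds 4, 1 for each population against CDP.

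Among the LPS receptor genes, Tlr4 had its highest mean in pre-CD8, which was not called against the next population, CD172a DC (0.29 higher in pre-CD8, limma, adjusted p = 0.476). Tlr4 stood at 5.20, 4.89 and 5.34 on the CDP arrays, 6.22 and 6.21 on the pre-CD8 arrays, 5.10 and 5.43 on the pre-CD4 arrays, 5.57, 5.65 and 5.60 on the CD24 DC arrays and 5.82 and 6.03 on the CD172a DC arrays. Both pre-CD8 arrays were above the other 10, all 5 spleen arrays were above all CDP and pre-CD4 arrays, and CDP and pre-CD4 arrays overlapped. Tlr4 was 1.07 ± 0.20 higher in pre-CD8 than in CDP (2.10-fold, limma, adjusted p = 0.00574) and 0.78 ± 0.20 higher in CD172a DC than in CDP (1.72-fold, adjusted p = 0.0112). Without pre-CD8 array 1 or 2 the pre-CD8 difference kept its size (1.07 and 1.08) but missed the threshold (0.0534 and 0.0557), and the CD172a DC difference missed it without CD172a DC array 2 (0.68, 0.0899) or CDP array 2 (0.66). Pre-CD8 minus pre-CD4 was 0.95 ± 0.22 (adjusted p = 0.0843), CD24 DC minus pre-CD8 was -0.61 ± 0.20 (0.102), and the test of stage gave -1.26 ± 0.29 (0.0669). The first and last of these were called with dim genes left out (0.0437 and 0.0378).

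Cd14, which encodes the protein that passes LPS on to the TLR4 complex, had its lowest values where Tlr4 had its highest. It stood at 4.73, 5.16 and 4.75 on the CDP arrays, 4.47 and 4.23 on the pre-CD8 arrays, 5.33 and 5.16 on the pre-CD4 arrays, 5.33, 6.38 and 5.94 on the CD24 DC arrays and 6.26 and 5.42 on the CD172a DC arrays. Both pre-CD8 arrays were below the other 10, all 5 spleen arrays were at or above the highest marrow array, and the spleen populations overlapped each other. Cd14 was 1.53 ± 0.31 higher in CD24 DC than in pre-CD8 (2.90-fold, limma, adjusted p = 0.00755) and 1.49 ± 0.34 higher in CD172a DC than in pre-CD8 (2.81-fold, adjusted p = 0.0132). Against CDP it was 1.00 ± 0.28 higher in CD24 DC (adjusted p = 0.0196) and 0.96 ± 0.31 higher in CD172a DC (adjusted p = 0.0394). Both spleen populations were thus called higher than CDP and pre-CD8, and neither was called against pre-CD4. Whether organ, handling or stage lay behind these differences between spleen and marrow was not tested. All 4 calls were lost on leaving out at least 1 array, the CD24 DC calls at 1.42 and 1.65 (without pre-CD8 array 2 or 1) and at 0.75 to 0.97 (without CD24 DC array 2 or 3, or CDP array 1 or 3). Without CD172a DC array 1 the differences of CD172a DC were 1.07 from pre-CD8 (adjusted p = 0.172) and 0.54 from CDP (0.418). That from pre-CD8 was also lost without either pre-CD8 array (1.61 and 1.37), and that from CDP without CDP array 1 or 3 or either pre-CD4 array (0.88 to 0.96) and after quantile normalization (0.91, 0.0779). The spleen populations could not be separated for this gene, with CD24 DC minus CD172a DC at 0.04 ± 0.31 (95% interval -0.62 to 0.71).

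Ly96, the gene of MD-2, had no called difference, with values of 5.67 to 5.78 on the CDP arrays, 5.16 to 5.90 on the pre-CD8 arrays, 4.40 to 5.82 on the pre-CD4 arrays, 5.44 to 6.98 on the CD24 DC arrays and 5.58 to 6.87 on the CD172a DC arrays. All 5 populations overlapped at least 1 other, and in the 4 other than CDP the arrays spread more widely than the CDP arrays did. CD24 DC minus pre-CD4 was 1.14 ± 0.49 (limma, adjusted p = 0.174) and CD172a DC minus pre-CD4 1.12 ± 0.53 (0.203, 95% interval -0.03 to 2.27). These intervals leave changes of over 2-fold undecided.

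Cd180 separated CDP from all later populations. It stood at 8.24, 8.26 and 8.46 on the CDP arrays, 9.92 and 10.02 on the pre-CD8 arrays, 9.73 and 9.99 on the pre-CD4 arrays, 9.89, 10.44 and 10.11 on the CD24 DC arrays and 10.52 and 10.50 on the CD172a DC arrays. The gap between the highest CDP array and the lowest of the 9 others was larger than the spread within any group, and the CD172a DC arrays were the highest of all. Against CDP, Cd180 was 1.65 ± 0.20 higher in pre-CD8 (3.13-fold, limma, adjusted p = 0.000292), 1.53 ± 0.20 in pre-CD4 (2.90-fold, adjusted p = 0.000716), 1.82 ± 0.18 in CD24 DC (3.54-fold, adjusted p = 9.52e-06) and 2.19 ± 0.20 in CD172a DC (4.55-fold, adjusted p = 7.96e-06). All 4 differences share the 3 CDP arrays, and all 4 were called under the 6 other settings and on leaving out each array. Again, 1 of these settings, the mean of probe sets, left the values unchanged. Of neighbours in the order of group means (CDP, pre-CD4, pre-CD8, CD24 DC, CD172a DC, low to high), only pre-CD4 and CDP differed with a call. CD172a DC minus pre-CD4 was 0.65 ± 0.22 (adjusted p = 0.0746), called after quantile normalization (0.82, 0.0379), with dim genes left out (0.0434), with an intensity trend (0.0496) and without CD24 DC array 1 (0.0485).

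Ly86, the gene of the MD-1 protein that accompanies CD180, ran the other way. It stood at 9.99, 10.24 and 10.12 on the CDP arrays, 9.65 and 9.71 on the pre-CD8 arrays, 10.10 and 10.29 on the pre-CD4 arrays, 9.33, 9.41 and 9.19 on the CD24 DC arrays and 8.39 and 9.67 on the CD172a DC arrays. The CDP and pre-CD4 arrays lay above all others, and the CD172a DC arrays lay so far apart that they enclosed all CD24 DC arrays. Ly86 fell by 1.16 in CD172a DC relative to pre-CD4 (limma, -1.16 ± 0.32, adjusted p = 0.0276), and it was lower than in CDP in both CD172a DC (-1.09 ± 0.29, 0.0149) and CD24 DC (-0.81 ± 0.26, 0.0403). Both CD172a DC differences rested on array 1: without it they were -0.52 from pre-CD4 (adjusted p = 0.299) and -0.45 from CDP (0.267). That from pre-CD4 was also lost without either pre-CD4 array (-1.26 and -1.07) and with only both groups in the fit (-1.16, 0.0753). The call in CD24 DC held without either CD172a DC array and was lost without any of the other 10, at -0.87 to -0.75. Across the 12 arrays Cd180 and Ly86 correlated at r = -0.62, a description over arrays that share their groups.

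Myd88, the shared adaptor gene, differed little. It ran from 6.05 to 6.38 on the CDP arrays, 6.62 to 6.97 on the pre-CD8 arrays, 6.74 to 6.80 on the pre-CD4 arrays, 6.51 to 6.85 on the CD24 DC arrays and 6.03 to 6.64 on the CD172a DC arrays. All arrays of pre-CD8, pre-CD4 and CD24 DC were above all CDP arrays, and the CD172a DC arrays reached into the CDP range. The largest difference, pre-CD8 minus CDP, was 0.59 ± 0.23 (limma, adjusted p = 0.20, 95% interval 0.10 to 1.08). Pre-CD4 minus CDP was 0.57 ± 0.23 (0.233) and CD24 DC minus CDP 0.52 ± 0.20 (0.0864). CD24 DC minus CD172a DC was 0.39 ± 0.23 (0.473, interval -0.10 to 0.88).

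Read by comparison, pre-CD8 against CDP had 2 of the 10 genes called, Tlr4 and Cd180, both higher, with 4.77% of all genes called. Pre-CD4 against CDP had 1, Cd180, with 4.54% of all genes called. Pre-CD8 against pre-CD4 had 0 called in limma, with 0.703% of all genes called and 3 of the 10 (Tlr1, Tlr4 and Cd14) at an unadjusted p under 0.05. The share of all genes under that unadjusted threshold was not computed, so the 3 cannot be set against it. In this comparison the median difference of the set was 0.17, against 0.01 over all genes. The progenitors were thus told apart from CDP by 1 or 2 of these genes and from each other by none at this threshold, with the intervals of Tlr1 (0.26 to 1.50), Tlr4 (0.48 to 1.41) and Cd14 (-1.63 to -0.17) lying to 1 side of 0.

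CD24 DC against CD172a DC had 2 called, Tlr1 and Tlr5, both lower in CD24 DC, with 5.59% of all genes called and a median of -0.16 in the set, against -0.01 over all genes. CD24 DC against pre-CD8 had 1, Cd14, with 6.31% called overall. CD172a DC against pre-CD4 had 3 higher (Tlr1, Tlr2 and Tlr5) and 1 lower (Ly86), with 12.7% called overall and a median of 0.65, against 0.09 over all genes. This count moved with single arrays, from 1 without pre-CD4 array 1 to 5 without CD24 DC array 1, and was 2 with only both groups in the fit, 5 after quantile normalization or with an intensity trend (Cd180 added) and 6 with dim genes left out (Tlr4 and Cd180 added). CD172a DC against pre-CD8, across lineages, had 3 higher (Tlr1, Tlr5 and Cd14), with 9.41% called overall. CD24 DC against pre-CD4 had 0 called in limma, with 11.4% called overall and 2 of the 10 (Ly96 and Ly86) at an unadjusted p under 0.05. Here too the share of all genes under the unadjusted threshold was not computed.

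**Figure D3:**
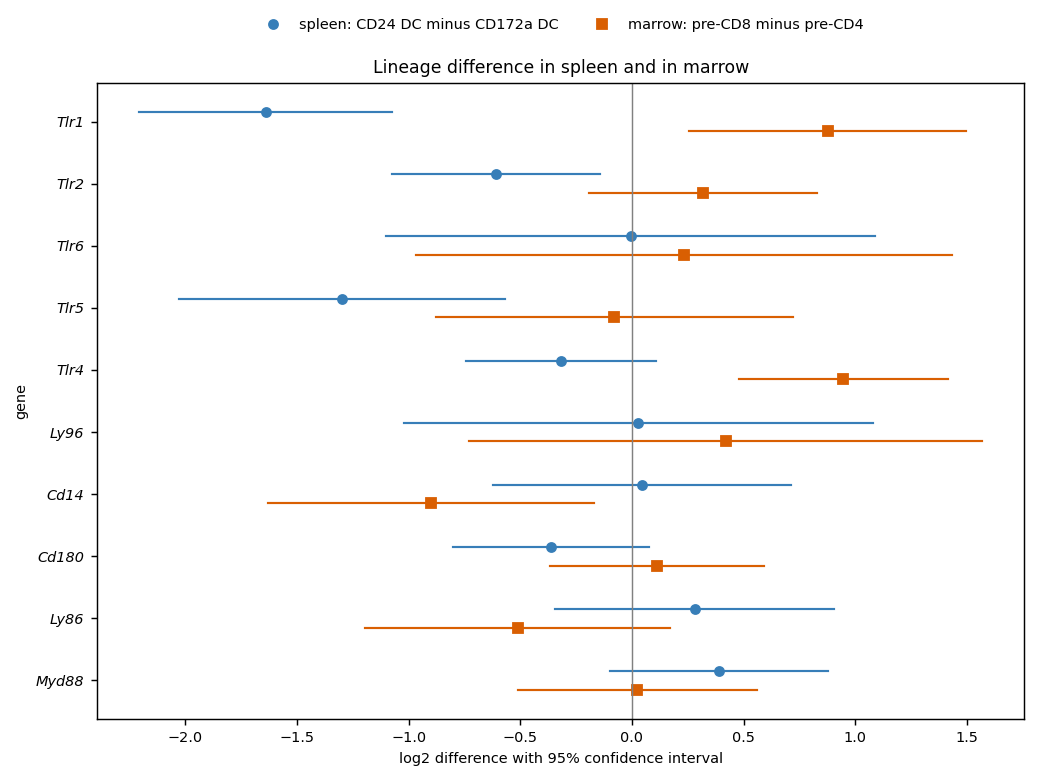
Log2 difference (horizontal axis) between the lineages for each gene (vertical axis), with 95% confidence intervals from limma: CD24 DC minus CD172a DC in spleen (circles) and pre-CD8 minus pre-CD4 in marrow (squares). The Tlr1 intervals lie on opposite sides of 0, at -2.21 to -1.07 in spleen and 0.26 to 1.50 in marrow.

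Markers of other cells were followed because neutrophils and monocytes express several of these receptors. The mean of 10 neutrophil markers was 6.48, 8.02 and 7.97 on the CDP arrays, 6.20 and 8.89 on the pre-CD8 arrays, 5.97 and 6.57 on the pre-CD4 arrays, 4.57, 6.37 and 4.96 on the CD24 DC arrays and 6.57 and 4.69 on the CD172a DC arrays. The arrays of every population but pre-CD4 differed by more than 1 in this mean. Within their groups, CDP array 2, CD24 DC array 2 and CD172a DC array 1 were highest in neutrophil markers. They were also highest in Cd14 (5.16, 6.38 and 6.26). In pre-CD8 and in pre-CD4, array 2 was the higher in neutrophil markers but the lower in Cd14 (4.23 against 4.47, and 5.16 against 5.33). The part of these markers in the Cd14 values, or in those of any other member, was not tested. Summed over the list, the neutrophil levels were 64.8 to 80.2 in CDP, 62.0 to 88.9 in pre-CD8, 59.7 to 65.7 in pre-CD4, 45.7 to 63.7 in CD24 DC and 46.9 to 65.7 in CD172a DC.

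The mean of 9 monocyte and macrophage markers was 7.59 to 8.02 in CDP, 7.16 to 7.50 in pre-CD8, 7.82 to 7.94 in pre-CD4, 5.81 to 6.24 in CD24 DC and 6.66 to 6.79 in CD172a DC. It was higher on every marrow array than on every spleen array, and its part in the values of the members was not tested. Of these 9 markers, CD172a DC against pre-CD4 had 2 called higher and 3 lower, with 12.7% of all genes called. The higher ones were Adgre1 and Fcgr4 (1.27 ± 0.31, limma, adjusted p = 0.017). Adgre1, which encodes F4/80, had a mean of 9.31 ± 0.15 in CD172a DC and 5.55 ± 0.07 in pre-CD4, and Ly6c2, of inflammatory monocytes, 4.32 ± 0.75 in CD172a DC and 11.57 ± 0.01 in pre-CD4 (SD, n = 2 each). Adgre1, Fcgr4 and Ly6c2 were singled out after their values were seen. The mean of 7 B cell markers was 4.45 to 5.06 on all arrays. Among them Ms4a1, which encodes CD20 and was singled out after its values were seen, was 3.48 ± 0.24 higher in CD24 DC than in pre-CD8 (limma, adjusted p = 3.14e-06), 2.35 ± 0.26 higher in CD172a DC than in pre-CD4 (5.99e-05) and 1.43 ± 0.24 higher in CD24 DC than in CD172a DC (0.00246). Of the 7 markers, Ms4a1 was the only 1 called in each of these comparisons. Cd79b went the other way in each, without a call (-1.20, -0.43 and -1.13). The mean of 7 plasmacytoid DC markers was 7.56 to 7.87 in pre-CD4 and 6.02 to 6.55 elsewhere. Since these are log2 values with no true zero, no marker can be said to be absent.

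Downstream adaptors and kinases of the pathway changed in single genes. Of 20 measured, 2 were higher in pre-CD8 than in CDP, 3 higher and 1 lower in pre-CD4 than in CDP, and 0 were called between pre-CD8 and pre-CD4, where 4.77%, 4.54% and 0.703% of all genes were called in these comparisons. Irf7, a transcription factor of the MyD88 pathway that drives interferon genes, was 2.02 ± 0.30 higher in pre-CD8 than in CDP (limma, adjusted p = 0.00124) and 1.86 ± 0.30 higher in pre-CD4 than in CDP (0.00288). Pik3ap1, which links TLRs to PI3-kinase, was 0.98 ± 0.25 higher in pre-CD8 than in CDP and 1.14 ± 0.25 higher in CD24 DC than in pre-CD8. Irak2, a kinase of the receptor complex, was 1.09 ± 0.21 higher in pre-CD4 than in CDP, and Map3k8, a kinase of the ERK arm, 1.24 ± 0.29. Ikbke, a kinase of the interferon arm, was -1.01 ± 0.26 in pre-CD4 relative to CDP.

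Of the 20, 1 was called between the spleen populations (5%, against 5.59% of all genes). This was Ticam2, the TRAM adaptor that carries TLR4 signals from endosomes. It stood at 6.10, 5.24 and 4.92 on the CD24 DC arrays, against 7.33 and 7.42 on the CD172a DC arrays. CD24 DC arrays were all below, by 1.95 in the mean (limma, -1.95 ± 0.31, adjusted p = 0.00169). It was also lower in CD24 DC than in pre-CD8, at -1.17 ± 0.31 (0.0373), where 2 other genes of the list were higher: Pik3ap1 and Map3k8 (1.34 ± 0.29). In that comparison 15% of the list and 6.31% of all genes were called. In CD172a DC relative to pre-CD4, Map3k8 was 1.64 ± 0.31 higher (0.00353) and Tab1, a partner of the kinase TAK1, 0.75 lower (-0.75 ± 0.23, 0.0435). These made up 10% of the list, with 12.7% of all genes called.

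Of 8 genes for TLR chaperones and trafficking, Hsp90b1, which encodes the chaperone gp96 that folds most TLRs, was higher in CD24 DC than in CD172a DC (1.18 ± 0.22, adjusted p = 0.00603). It was lower in CD172a DC than in pre-CD4 (-1.09 ± 0.24, 0.00935), as was Ap3b1, a subunit of an endosomal sorting adaptor (-0.96 ± 0.23, 0.0157). Hsp90b1 was thus lowest in the population in which Tlr1, Tlr2, Tlr5 and Cd180 were highest. Cnpy4, a relative of the gp96 co-chaperone, was -1.29 ± 0.22 in pre-CD8 and -0.87 ± 0.22 in pre-CD4 relative to CDP, and Lrrc59, of the endoplasmic reticulum, -0.78 ± 0.19 and -0.93 ± 0.19, all 4 called and the only calls of the list against CDP in these progenitors. Over all genes, 4.77% and 4.54% were called in these comparisons.

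A few negative regulators of the pathway were higher in spleen than in the progenitor of the lineage. Of 11 measured, 2 were called higher in CD24 DC than in pre-CD8 and 3 in CD172a DC than in pre-CD4, with 0 lower in both, where 6.31% and 12.7% of all genes were called. Tnfaip3, the deubiquitinase A20, stood at 9.19 ± 0.74 in CD172a DC and 6.24 ± 0.10 in pre-CD4, a difference of 2.96 ± 0.31 (SD, n = 2 each, limma, adjusted p = 4.29e-05), and was 1.81 ± 0.29 higher in CD24 DC than in pre-CD8 (0.00136). Nfkbia, the inhibitor IkB-alpha, was 1.32 ± 0.22 higher in CD172a DC than in pre-CD4 (0.00144) and 0.92 ± 0.20 higher in CD24 DC than in pre-CD8 (0.0136). Within marrow, Nfkbia was also higher than in CDP, by 1.02 ± 0.20 in pre-CD8 (limma, adjusted p = 0.00982) and 0.88 ± 0.20 in pre-CD4 (0.0236). Over all genes, 4.77% and 4.54% were called in these marrow comparisons. Cyld, another deubiquitinase, was 1.51 ± 0.23 higher in CD172a DC than in pre-CD4. Irak3, an inhibitory kinase homologue, was -1.28 ± 0.28 in pre-CD8 relative to CDP and -1.08 ± 0.28 in CD24 DC relative to CD172a DC. Tnfaip3 and Nfkbia are also immediate targets of NF-kB that respond to tissue handling, and marrow and spleen were released by different methods, so that organ, handling and stage cannot be told apart.

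All 7 measured genes for ligand co-factors were called in at least 1 comparison of stage or lineage. The share of all genes called in at least 1 comparison was not computed. Of 7 measured, 3 were higher and 2 lower in pre-CD8 than in CDP, and 3 were higher and 2 lower in CD24 DC than in CD172a DC, where 4.77% and 5.59% of all genes were called. Cd36, which helps TLR2 with TLR6 to bind lipopeptides, stood at 7.10 ± 1.05 in pre-CD8 and 3.40 ± 0.22 in CDP (n = 2 and 3), and at 10.10 ± 0.03 in CD24 DC and 6.09 ± 0.35 in CD172a DC (n = 3 and 2, SD). The differences were 3.70 ± 0.34 and 4.02 ± 0.34 (limma, adjusted p = 2.86e-05 and 1.51e-05). Clec7a, which encodes the beta-glucan receptor dectin-1, was -2.13 ± 0.26 in CD24 DC relative to CD172a DC (0.000281) and 2.74 ± 0.29 higher in CD172a DC than in pre-CD4. Lbp, the LPS-binding protein gene, was -2.15 ± 0.37 in pre-CD8 and -2.87 ± 0.37 in pre-CD4 relative to CDP. Itgb2, the beta chain of integrins that can bind LPS, was 2.57 ± 0.23 higher in pre-CD8 and 2.40 ± 0.23 higher in pre-CD4 than in CDP. Itgam, its alpha partner, was -3.06 ± 0.36 in CD24 DC relative to CD172a DC.

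Of the 7 TLR genes of endosomes, 5 were called between the spleen populations, 3 higher and 2 lower in CD24 DC, with 5.59% of all genes called. Tlr3 was 3.52 ± 0.31 higher in CD24 DC, and Tlr7 was -5.36 ± 0.33 in CD24 DC relative to CD172a DC.

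The genes whose levels followed each member most closely over the 12 arrays were listed for the 7 members whose group means differed by 1 or more, among 5164 genes with a range as wide. They were Ccr3 (Pearson r = 0.968), App (0.944) and Rhoq (0.934) for Tlr1, and Il1rn (0.947), Myo1e (0.938) and Zfp831 (0.937) for Tlr5. For Cd180 they were S100a11 (0.984), Nfatc2 (0.984) and Rgs2 (0.972), and for Ly86 Xpo1 (0.973), Serinc3 (0.958) and Casp8 (0.949). The closest gene was less close for Cd14 (Btnl1, 0.893), Tlr4 (Dhrs9, 0.884) and Ly96 (B230217C12Rik, 0.759). Within the set, the closest were Tlr1 and Tlr2, at r = 0.85. These correlations rest on 12 arrays in 5 groups that share their populations, and they are a description.

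**Figure D4:**
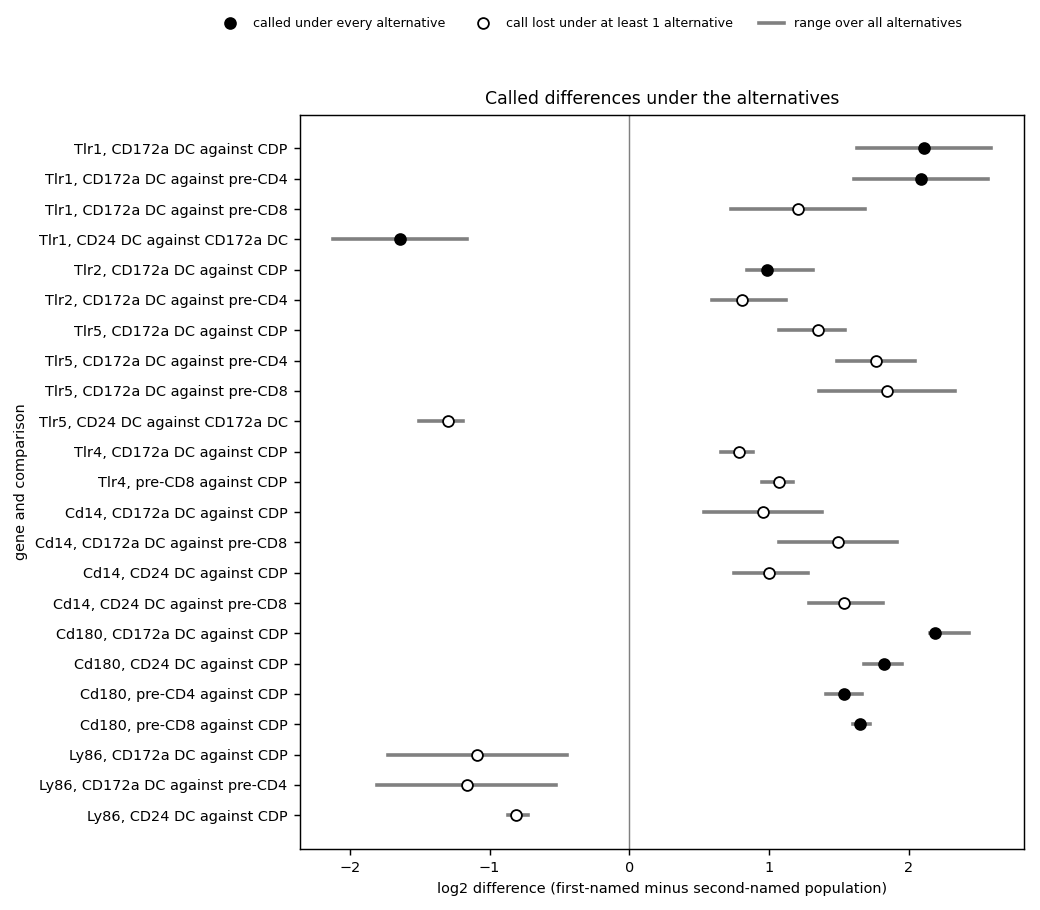
Log2 difference (horizontal axis) of the 23 called differences between populations (vertical axis), with grey lines for the range over 12 fits that each left out 1 array and 6 other settings. Filled circles mark the 8 differences called under every one of them, of Tlr1 (3), Tlr2 (1) and Cd180 (4), and open circles the 15 that lost the call at least once; no line crosses 0. The setting that averages probe sets leaves the values of these genes unchanged. Leaving out dim genes, fitting only the groups compared, an intensity trend or leaving out an array of another group cannot change a difference. The lines thus show only the remaining fits.

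Of the 23 called differences, 8 were called under each of the 6 other settings and on leaving out each of the 12 arrays. They were those of Cd180 in all 4 populations against CDP, those of Tlr1 in CD172a DC against CDP and pre-CD4 and in CD24 DC against CD172a DC, and that of Tlr2 in CD172a DC against CDP. The other 15 kept their direction in every fit but lost the call in at least 1. Only quantile normalization, the replicate block and leaving out an array of a compared group can change the size or direction of a difference. The other fits leave it as it is and can move only the call. Of the settings, the mean of probe sets left the values of these genes unchanged and is no check of them.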

How the data were processed

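RNA of 5 sorted populations was measured on 12 Affymetrix whole-transcript arrays, grouped by the sample titles. The authors deposited a log2 value for each probe set on each array, with no pooling of replicates. How these values were background-corrected, summarized and normalized was not given in the sources used here, and detection calls were not used. Platform annotation named a single gene for 23521 of the 35145 probe sets, several genes for 1814 and no gene for 9810. Of the resulting 22180 genes, 1082 had several probe sets, each then represented by its probe set of highest mean. All 10 members had 1 probe set and entered every test, since no filter on low values was applied. Of the genes listed for comparison, 10 were not analysed here, among them Irak4, Irf5 and Clec9a.

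Groups were compared in limma (version 3.58.1, with R 4.3.3), using lmFit and eBayes in a single fit of the 12 arrays with a mean per group (7 residual and 6.19 prior degrees of freedom). P-values were two-sided and adjusted by Benjamini-Hochberg over all genes, with a threshold of 0.05. The number of arrays limits the precision: the median standard error was 0.24 for 3 arrays against 2 and 0.27 for 2 against 2. The scripts were tested on simulated data. Alternatives were quantile normalization, leaving out genes with a mean under the 40th percentile, the mean of a gene's probe sets, the replicate number as a block, a fit of only the groups compared, an intensity trend, and leaving out each array.

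The members and gene lists were chosen with earlier results of these data known. By rule, all members were named, and of each pathway list at most 4 called genes per comparison, those with the largest differences. The genes closest in pattern were the 3 with the highest Pearson correlation among genes whose group means differed by 1 or more. Promoter windows came from a RefSeq table (GRCm38.p6). Deviations from the group means of arrays with the same replicate number correlated at r = 0.10 to 0.42 in 13 pairs without CD172a DC and at -0.16 to 0.024 in 8 pairs with it. CD24 DC and CDP alone shared 3 numbers, each pair of them at r over 0.1 (0.37, 0.11 and 0.11), and were read as paired. The other comparisons, with 2 shared numbers, were not, although some of them had higher values, as CDP with pre-CD8 (0.42 and 0.37). The size of r thus does not set the groups read as paired apart. In a group of 2 the deviations mirror each other, so these pairs are not independent, and what the numbers mark is not stated. The main fit, which gave the p-values of CD24 DC against CDP above, did not use this pairing.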

Additional observations from a re-analysis of the deposited data

Results flagged for a closer look

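Tlr1 differed between the lineages in opposite directions in spleen and in marrow. The spleen difference (CD24 DC minus CD172a DC, -1.64) minus the marrow difference (pre-CD8 minus pre-CD4, 0.88) was -2.52 ± 0.39 (standard error), with an adjusted p of 0.00666 in limma's test of the interaction. All 3 CD24 DC arrays were below both CD172a DC arrays, and both pre-CD8 arrays were above both pre-CD4 arrays. The marrow difference by itself was not called (adjusted p = 0.41). No group had more than 3 arrays, so single arrays were not screened for outliers.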

How the results depend on the processing

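Of 83 differences of the 10 genes that were followed through all alternatives, 62 kept their direction throughout, and the 21 that changed sign at least once held 0 of the called ones. In CD24 DC against CDP and pre-CD4, and in CD172a DC against CDP and pre-CD8, only the called differences were followed. The uncalled ones of these pairs were not, so the share that kept direction is not that of all differences. All 23 called differences between populations kept their direction, and 8 kept their call under every alternative. Direction could change only with quantile normalization, the replicate block or the loss of an array of a compared group, so the other fits are no check of it. The set had 1 called gene in pre-CD8 against pre-CD4 and 2 in the test of stage with dim genes left out, and 2 in CD172a DC against pre-CD4 with only the groups compared. On leaving out 1 array, the called genes of the set ranged from 1 to 3 in pre-CD8 against CDP, 1 to 2 in CD24 DC against CD172a DC, 0 to 1 in CD24 DC against pre-CD8 and 1 to 5 in CD172a DC against pre-CD4, and over all pairs from 16 to 23. The lowest pre-CD8 counts came without either pre-CD8 array.

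After quantile normalization the uncalled differences of Ly96 in CD24 DC against CD172a DC (-0.030), of Tlr2 (0.069) and Myd88 (0.12) in CD24 DC against pre-CD8, and of Tlr6 in CD172a DC against pre-CD4 (0.078) changed sign. With the replicate number as a block, 22 differences were called in all, against 23, the call of Cd14 in CD172a DC against CDP being lost (adjusted p = 0.0549), and Tlr6 in CD24 DC against CD172a DC changed sign (0.17). This block changed no other call of the set, those of CD24 DC against CDP, the groups read as paired, included. The cause was not tested.

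Among the uncalled differences that were followed, these crossed 0 on leaving out 1 array. In pre-CD8 against CDP, Ly96 ran from -0.58 to 0.16. In pre-CD4 against CDP, Tlr1 ran from -0.077 to 0.14, Tlr2 from -0.039 to 0.39, Tlr4 from -0.039 to 0.29, Tlr6 from -0.0082 to 0.46, Ly96 from -1.34 to 0.080 and Ly86 from -0.019 to 0.17. In pre-CD8 against pre-CD4, Tlr5 ran from -0.57 to 0.41, Ly96 from -0.29 to 1.13, Cd180 from -0.015 to 0.24 and Myd88 from -0.15 to 0.20. In CD24 DC against CD172a DC, Tlr6 ran from -0.79 to 0.78, Cd14 from -0.38 to 0.47, Ly96 from -0.61 to 0.67 and Ly86 from -0.36 to 0.92. In CD24 DC against pre-CD8, Tlr6 ran from -0.84 to 0.17 and Myd88 from -0.25 to 0.11, and in CD172a DC against pre-CD4 Tlr6 ran from -0.82 to 0.74. In the test of stage, Tlr6 ran from -1.02 to 0.54 and Ly96 from -1.10 to 0.32.

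Over all genes, leaving out 1 array moved the calls from 1057 to between 510 and 1314 in pre-CD8 against CDP, from 156 to between 58 and 194 in pre-CD8 against pre-CD4, and from 2821 to between 1234 and 3415 in CD172a DC against pre-CD4. Groups of 2 arrays, an unknown background level and an unstated normalization limit all values.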
